A study of Mus musculus with 72 samples.

Results

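The 8 genes described here encode the myogenic regulatory factors Myod1, Myog, Myf5 and Myf6 and the MEF2 factors Mef2a, Mef2b, Mef2c and Mef2d. They were chosen by gene symbol, and each was measured by 1 probe set among 20239 with a named gene. RNA was measured on 72 whole-transcript arrays from 36 male C57BL/6 mice of 5 months, of which 18 were muscle-specific Bmal1 knockouts (mKO) and 18 were Cre-negative littermates (Ctrl). In mKO, floxed Bmal1 is recombined by Cre expressed from the Mlc1f promoter, a myosin light chain promoter active in muscle fibres, so cells between the fibres are not its target. Ctrl animals carried no Cre, so an effect of Cre itself and the loss of Bmal1 cannot be told apart. Each animal gave its soleus (SOL), which is slow, and its tibialis anterior (TA), which is fast, at 1 of 6 Zeitgeber times (ZT). Lights came on at ZT0 and went off at ZT12. The 24 groups of muscle, genotype and time held 3 arrays each, from separate animals. All levels are log2 signals, and a difference of 1 on this scale is a 2-fold change. A gene was called when its limma p, adjusted by Benjamini and Hochberg over the 20239 genes, was under 0.05.

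MyoD family members are basic helix-loop-helix factors that bind the E-box as dimers with E proteins and turn on muscle genes. Myod1 and Myf5 commit cells to the muscle lineage, Myog drives their differentiation, and Myf6 is the member best known from adult fibres. MEF2 proteins are MADS-box factors that act with the MyoD family and that link nerve activity and calcium signals to fibre gene expression. BMAL1, the product of Bmal1 (listed here as Arntl), pairs with CLOCK on E-boxes to drive daily rhythms, and Myod1 has been proposed as a target of that pair.

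Promoter windows from 250 bases before to 50 bases from the RefSeq start (GRCm38.p6) were found for 6 of the 8 genes, all but Myod1 and Myf6. Those of Myog, Mef2a and 1 of Mef2c are shown as examples of the E-box, the MEF2 site and the nuclear receptor element. The Myog window (chr1:134289754-134290053, plus strand) has 2 E-boxes, the Mef2a window (chr7:67372809-67373108, minus strand) has 1 MEF2 site, and the third of 3 Mef2c windows (chr13:83573357-83573656, plus strand) has 1 E-box and 2 matches to the nuclear receptor element AGGTCA. Capitals mark every match to the motifs searched, 5′ to 3′.
Myog: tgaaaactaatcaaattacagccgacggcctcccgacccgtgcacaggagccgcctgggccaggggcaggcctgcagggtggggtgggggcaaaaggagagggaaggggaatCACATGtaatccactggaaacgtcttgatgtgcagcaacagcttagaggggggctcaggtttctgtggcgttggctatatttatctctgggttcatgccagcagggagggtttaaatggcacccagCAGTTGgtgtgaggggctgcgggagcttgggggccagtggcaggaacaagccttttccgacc
Mef2a: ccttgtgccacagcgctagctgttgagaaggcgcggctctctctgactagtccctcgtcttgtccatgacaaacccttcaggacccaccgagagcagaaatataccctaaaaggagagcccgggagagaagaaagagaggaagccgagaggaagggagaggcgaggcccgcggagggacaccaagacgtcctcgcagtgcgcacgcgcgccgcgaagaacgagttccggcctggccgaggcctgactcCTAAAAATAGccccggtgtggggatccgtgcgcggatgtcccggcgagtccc
Mef2c: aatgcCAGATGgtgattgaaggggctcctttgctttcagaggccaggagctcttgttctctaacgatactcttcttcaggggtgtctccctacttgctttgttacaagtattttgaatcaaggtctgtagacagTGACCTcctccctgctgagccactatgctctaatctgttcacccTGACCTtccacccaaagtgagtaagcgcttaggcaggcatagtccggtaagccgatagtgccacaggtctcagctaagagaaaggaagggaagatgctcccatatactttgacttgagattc
The motifs were searched on both strands. CANNTG, the general E-box, was in 72.3% of 32851 windows of this length, and CACGTG, the E-box form bound by CLOCK and BMAL1 and itself a CANNTG, was in 7.15%. The MEF2 site, searched as YTAWWWWTAR, was in 3.19%, AGGTCA in 16.3%, and the D-box forms TTATGTAA and TTACGTAA in 0.938% and 0.119%. In the MEF2 pattern Y is C or T, W is A or T, and R is A or G. A near match that departs from a pattern at any base was not marked or counted. In Myog the E-boxes CACATG and CAGTTG began 138 and 12 bases before the start. The Mef2a site CTAAAAATAG began 2 bases before it. In Mef2c, CAGATG began 245 bases before the start, and TGACCT, the reverse complement of AGGTCA, began 116 and 72 bases before it. The Mef2b window and the first Mef2c window, not shown, held 2 E-boxes each, and the second Mef2c window held 1 match to AGGTCA. The Myf5 and Mef2d windows, also not shown, held no match to any motif searched. None of the 8 windows of these 6 genes held CACGTG or a D-box form, which says nothing of Myod1 or Myf6. These matches describe letters in a window and no binding was measured.

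Array medians ran from 6.69 to 6.85. The 10 liver genes of a checking list averaged 10.87 on the TA array of Ctrl ZT0 replicate A, 7.85 and 7.58 on the TA and SOL arrays of Ctrl ZT4 replicate C, and 5.84 on the median array. Results that changed without these 2 animals are given beside their values. Animal numbers fell in 3 series, BM3 (23 animals), BM2* (7) and BM2 (6), whose meaning the labels do not give. All ZT12 animals were BM2 or BM2*, and at ZT20 series and genotype cannot be told apart because Ctrl were all BM3 and mKO all BM2. At ZT16 Ctrl were 1 BM3 and 2 BM2* animals and mKO were all BM3. As a check of the knockout, the daily amplitude of Arntl was 1.34 in Ctrl SOL against 0.59 in mKO SOL, and 1.09 in Ctrl TA against 0.33 in mKO TA. The limma adjusted p of the difference in rhythm, which covers amplitude and peak time together, was 1.33e-05 in SOL and 1.7e-05 in TA. The mean level of Arntl over the day was not called in either muscle. Whether the probe set covers the deleted exon is not known, so this is a check of the rhythm only. Dbp, a direct clock output, fell by 0.69 in SOL and fell by 1.56 in TA.

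Loss of Bmal1 went with more Myod1 and less Mef2c in both muscles, and with less Mef2a in TA. In SOL 2 of the 8 genes were called, 1 higher and 1 lower, where 7.1% of all genes were called (3.56% higher, 3.54% lower). In TA 3 of 8 were called, 1 higher and 2 lower, against 14.8% of all genes (6.76% higher, 8.06% lower). Being higher in both muscles was called for 2.14% of genes and lower in both for 2.43%. The other members had no called difference in mean level.

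**Figure D1:**
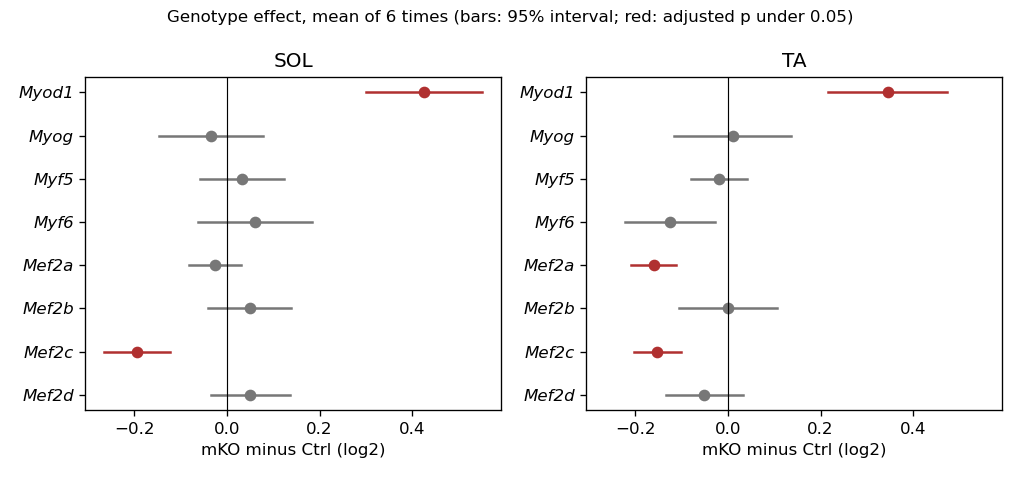
Difference in log2 signal between mKO and Ctrl for each of the 8 genes, averaged over 6 times, in SOL and TA, with 95% intervals from limma and called genes in red. Myod1 lies at 0.43 in SOL and 0.35 in TA, to the right of all other members, and Mef2c lies left of 0 in both muscles.

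Myod1, the factor that can turn other cell types into muscle, was higher in mKO at 6 of 6 times in each muscle, as were 5.77% of genes in SOL and 10.9% in TA. In SOL the 18 Ctrl arrays read from 7.22 to 8.69 with a median of 8.06, and the 18 mKO arrays from 8.14 to 8.85 with a median of 8.47. In TA they read from 8.43 to 9.60 (median 8.88) in Ctrl and from 8.30 to 9.99 (median 9.33) in mKO. The ranges of the 2 genotypes overlap over the whole day in both muscles. The mean difference was 0.43 ± 0.06 (SE) in SOL, or 1.34-fold (limma adjusted p = 8.15e-06), and 0.35 ± 0.06 in TA, or 1.27-fold (limma adjusted p = 0.000161). It was 0.33 in SOL and 0.29 in TA in the BM3 animals alone, and 0.73 and 0.67 in the BM2 and BM2* animals, where the TA value was not called (limma adjusted p = 0.0665). These values cover different times, since both genotypes had BM3 animals at ZT0, ZT4, ZT8 and ZT16 and BM2 or BM2* animals at ZT8 and ZT12, so series and time cannot be told apart between them. The size did not differ detectably between muscles, with TA minus SOL at -0.08 (95% interval -0.228 to 0.066).

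The Myod1 difference had its largest value at ZT12 in each muscle. All ZT12 animals were BM2 or BM2*, and at ZT20 Ctrl were BM3 and mKO BM2. Series and time therefore cannot be fully told apart in this pattern, and the difference in rhythm between genotypes was not called. In SOL at ZT12 the Ctrl arrays read 7.82, 7.22 and 7.93 and the mKO arrays 8.65, 8.33 and 8.21. At ZT16 they read 8.25, 7.92 and 8.26 in Ctrl and 8.79, 8.85 and 8.73 in mKO. Every mKO array stood above every Ctrl array at both times, as at ZT4 and ZT8. That made 4 of 6 times, a pattern shared by 1.13% of genes. The differences were 0.74 at ZT12 (limma adjusted p = 0.00715) and 0.65 at ZT16 (limma adjusted p = 0.0236), called for 0.751% and 0.944% of all genes at those times. They were 0.09 at ZT0, 0.37 at ZT4, 0.56 at ZT8 and 0.15 at ZT20, none called, where 0.553%, 0.44%, 0.86% and 1.04% of genes were. The ZT12 call rested on single arrays, since the difference was 0.52 without Ctrl replicate B and 0.61 without mKO replicate A, neither called. The ZT16 call was lost without any 1 of the mKO replicates A, B or C or without Ctrl replicate B, with values from 0.54 to 0.68. At ZT16, 2 of the 3 Ctrl animals and none of the mKO animals were BM2*, and the part of the series in that difference was not tested. The ZT8 difference was called without Ctrl ZT8 replicate A (0.67) or Ctrl ZT12 replicate B (0.56).

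In TA at ZT12 the Ctrl arrays read 8.66, 8.43 and 8.71 and the mKO arrays 9.73, 9.38 and 9.52. At ZT16 they read 9.27, 9.44 and 9.60 in Ctrl and 9.99, 9.86 and 9.99 in mKO. The groups did not overlap at these 2 times and overlapped at the other 4, and 9.01% of genes had mKO wholly above at 2 or more times. The difference was 0.94 at ZT12 (limma adjusted p = 0.000187), called for 2.52% of all genes, and 0.51 at ZT16 (limma adjusted p = 0.0977), where 2.02% were. It was 0.13 at ZT0, 0.05 at ZT4 and 0.08 at ZT20, none called, against 1.63%, 1.67% and 1.99% of genes. At ZT8 mKO replicate C read 8.30, below all Ctrl arrays, while replicates A and B read 9.08 and 9.14. In each genotype replicate C at ZT8 was a BM2* animal and A and B were BM3. Ctrl replicate C read 8.44, the lowest Ctrl value at that time. Without mKO replicate C only BM3 mKO animals remain at ZT8, and the part of the series was not tested. The ZT8 difference was 0.35 with the mKO replicate C array and 0.62 without it, when the difference was called (limma adjusted p = 0.00668). Without the same array the ZT16 difference was called as well (limma adjusted p = 0.0135). At ZT8 2.03% of genes were called with all arrays.

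**Figure D2:**
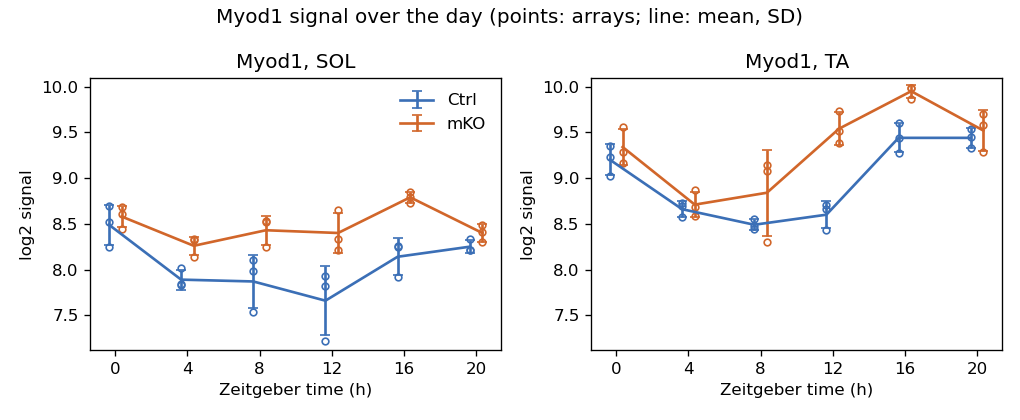
Log2 signal of Myod1 against Zeitgeber time in SOL and TA, with each array as a point and the mean and SD of 3 arrays as a line. In TA at ZT12 the 3 mKO arrays lie from 9.38 to 9.73 and the 3 Ctrl arrays from 8.43 to 8.71.

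Myod1 had a called daily rhythm in Ctrl SOL and in both genotypes of TA. A 24 h cosine fitted to Ctrl SOL had an amplitude (mean to peak) of 0.35 ± 0.07 and a peak at ZT21.9 (limma adjusted p = 0.00337), and in mKO SOL an amplitude of 0.15 ± 0.07 that was not called (limma adjusted p = 0.392). In TA the amplitude was 0.55 ± 0.07 with a peak at ZT19.7 in Ctrl (limma adjusted p = 4.56e-06), and 0.57 ± 0.07 with a peak at ZT16.9 in mKO (limma adjusted p = 7.34e-06). All ZT12 animals were BM2 or BM2*, and all mKO animals at ZT20 were BM2. Series and time therefore cannot be fully told apart in these rhythms and peak times. Arntl peaked at ZT0.9 in Ctrl SOL and at ZT0.1 in Ctrl TA, and Dbp at ZT11.4 and ZT11.2. Of the 8 genes 2 were called rhythmic in Ctrl SOL, 1 in mKO SOL, 1 in Ctrl TA and 1 in mKO TA, where 6.05%, 5.68%, 2.7% and 1.76% of all genes were. The difference in rhythm between genotypes was not called for any member, and 0.0395% of genes in SOL and 0.104% in TA were. At an unadjusted limma p under 0.05 there was 1 member in each muscle, Myod1. For Myod1 it had an unadjusted limma p of 0.00739 in SOL (adjusted 0.788) and 0.00104 in TA (adjusted 0.362). Without TA mKO ZT8 replicate C, the BM2* animal of its group, the TA difference was called (limma adjusted p = 0.0357). In the BM3 animals alone, which leave out ZT12 and, for mKO, ZT20, the SOL amplitudes were 0.23 in Ctrl and 0.24 in mKO, neither called (limma adjusted p = 0.199 and 0.165). The SOL amplitude difference was then 0.01, against -0.20 over all animals.

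Myod1 is also made by satellite cells, the stem cells between the fibres, and in bulk muscle more cells of a type and more RNA per cell cannot be told apart. Of 13 satellite cell markers 2 rose in mKO SOL (15.4%) and 4 in mKO TA (30.8%), beside 3.56% and 6.76% of all genes, and none fell. Sdc4 rose by 0.49 and Cxcr4 by 0.21 in TA, and Itga7 rose by 0.21 in SOL. Pax7, the defining satellite cell factor, read 0.06 ± 0.04 higher in SOL and 0.07 ± 0.04 higher in TA, neither called. The mean of the 13 markers had a median of 7.52 in Ctrl SOL (7.45 to 7.65) and 7.60 in mKO SOL (7.51 to 7.65), and of 7.46 in Ctrl TA (7.39 to 7.54) and 7.54 in mKO TA (7.48 to 7.69). Their part in the Myod1 difference was not tested. Among 12 denervation-responsive genes measured, 1 rose and 2 fell in SOL, and 2 rose and 1 fell in TA, which is 25% called in each muscle beside 7.1% and 14.8% of all genes. Musk, the receptor kinase of the nerve-muscle synapse, rose by 0.41 in TA. Chrna1, an acetylcholine receptor subunit of the same list, fell in SOL.

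Myf6, the member best known from adult fibres, was the other rhythmic gene of the MyoD family. In Ctrl SOL it read 11.72, 11.69 and 11.79 at ZT0 and 11.08, 11.07 and 10.97 at ZT12. These were the times of its highest and lowest means. All ZT0 animals were BM3 and all ZT12 animals were BM2 or BM2*, so series and time cannot be told apart there. The amplitude of Myf6 was 0.35 ± 0.06 with a peak at ZT22.7 in Ctrl SOL (limma adjusted p = 0.000277). In mKO SOL it was 0.29 ± 0.06 with a peak at ZT20.6 (limma adjusted p = 0.00356). The mKO SOL call was lost in a test over the 6 time means, which ran from 11.18 to 11.72 (limma adjusted p = 0.0574). In TA the amplitude was 0.18 ± 0.05 in Ctrl and 0.20 ± 0.05 in mKO, neither called (limma adjusted p = 0.113 and 0.066). The SOL Ctrl rhythm had an amplitude of 0.33 in BM3 animals alone and was not called there (limma adjusted p = 0.0679). The mean level differed by 0.06 in SOL and by -0.13 in TA between genotypes, and the TA value was not called (limma adjusted p = 0.0753). In TA the 18 Ctrl arrays read from 11.50 to 12.22 (median 11.89) and the mKO arrays from 11.45 to 12.08 (median 11.73). The TA value was called in BM3 animals alone (-0.20, limma adjusted p = 0.0425), with quantile normalisation (-0.15, limma adjusted p = 0.0211), with array weights and among genes above the median signal. It was also called, at -0.148 to -0.138, without any 1 of TA Ctrl ZT0 replicate C, ZT4 B, ZT8 C or ZT16 B, or of TA mKO ZT0 B or ZT8 C. The rhythm in mKO TA was called without TA mKO ZT8 replicate C, the BM2* animal of its group (amplitude 0.25, limma adjusted p = 0.012).

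**Figure D3:**
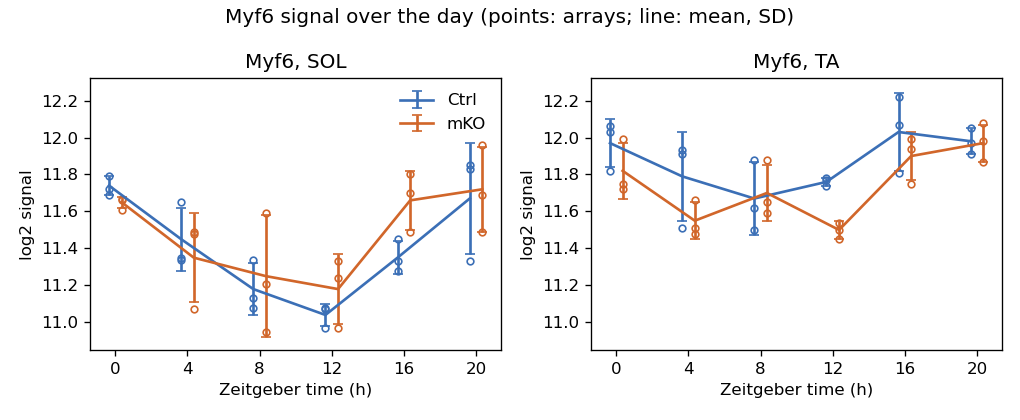
Log2 signal of Myf6 against Zeitgeber time in SOL and TA, with each array as a point and the mean and SD of 3 arrays as a line. In Ctrl SOL the group means run from 11.04 at ZT12 to 11.74 at ZT0.

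Myog and Myf5 were measured near the dim end of the array. Their mean signals were 5.90 and 6.18, against a 95th percentile of 6.13 for 1076 olfactory receptor genes, a set picked after the values were seen as a view of dim probe sets. The background of each probe set was not measured. Myog ranged from 5.46 to 6.21 in SOL and from 5.54 to 6.37 in TA. It differed between genotypes by -0.03 in SOL (95% interval -0.146 to 0.077) and 0.01 in TA (-0.117 to 0.137). Myf5 differed by 0.03 in SOL (-0.059 to 0.123) and -0.02 in TA (-0.080 to 0.040). None of these was called. The rhythm of Myf5 in Ctrl TA was not called (limma adjusted p = 0.1) but was without TA Ctrl ZT0 replicate C (amplitude 0.16, limma adjusted p = 0.0162).

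Mef2c, the MEF2 gene needed for sarcomere integrity in young muscle, was lower in mKO at 6 of 6 times in each muscle, as were 5.8% of genes in SOL and 10.4% in TA. In SOL it read from 12.15 to 12.58 (median 12.49) in Ctrl and from 12.12 to 12.48 (median 12.29) in mKO. In TA it read from 12.12 to 12.35 (median 12.25) and from 11.94 to 12.21 (median 12.09). All mKO arrays lay below all Ctrl arrays at 4 of 6 times in SOL and 5 of 6 in TA, as for 1.31% and 1.71% of genes with that many times or more. It fell by 0.19 ± 0.03 in SOL (limma adjusted p = 0.000225) and by 0.15 ± 0.02 in TA (limma adjusted p = 3.16e-05). In the BM2 and BM2* animals alone the values were -0.24 and -0.16, and neither was called. Mef2c is also made by endothelial cells, and of 9 endothelial markers 1 rose in SOL, Kdr by 0.22, and none was called in TA (11.1% and 0% of the markers, beside 7.1% and 14.8% of all genes). In TA 1 had an unadjusted limma p under 0.05. The mean of these markers had a median of 9.16 in Ctrl SOL and 9.26 in mKO SOL, and 9.06 in both genotypes in TA, and its part in the Mef2c difference was not tested.

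Mef2a, a MEF2 gene widely made in striated muscle, was lower in mKO TA and not detectably different in SOL. In TA the Ctrl arrays ran from 11.51 to 11.76 (median 11.65) and the mKO arrays from 11.35 to 11.57 (median 11.49). At each of the 6 times every mKO array lay below every Ctrl array, as for 0.894% of genes. The TA level fell by 0.16 ± 0.02 (limma adjusted p = 6.82e-06), and in the BM2 and BM2* animals alone it was -0.16 and not called (limma adjusted p = 0.422). In SOL the arrays ran from 11.23 to 11.48 in Ctrl and from 11.17 to 11.39 in mKO, and the difference was -0.03 (95% interval -0.082 to 0.030). The 2 effects differed by -0.14 ± 0.04 (limma adjusted p = 0.0312), the only 1 of 8 members called for this interaction, where 2.71% of all genes were. That call was lost without the 2 animals with liver transcripts (-0.14, limma adjusted p = 0.0565).

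**Figure D4:**
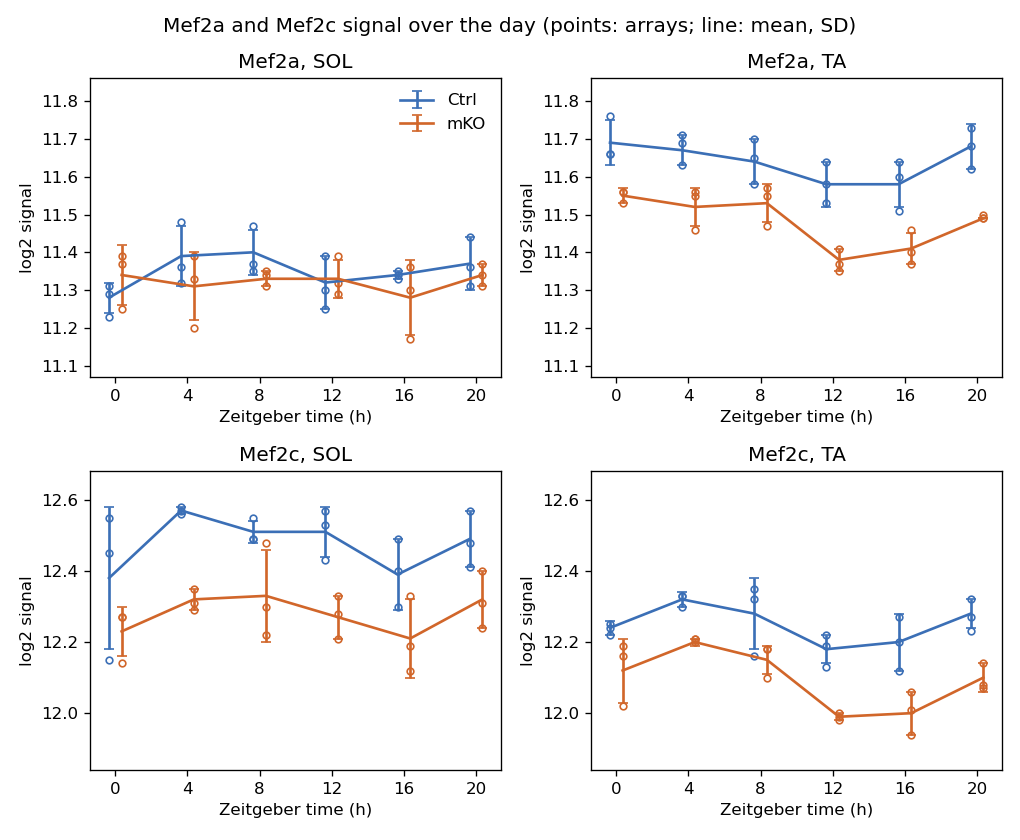
Log2 signal of Mef2a and Mef2c against Zeitgeber time in SOL and TA, with each array as a point and the mean and SD of 3 arrays as a line. In TA the mKO arrays of Mef2a lie from 11.35 to 11.57 and the Ctrl arrays from 11.51 to 11.76, with no overlap at any time.

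Mef2b and Mef2d had no called genotype difference. The mean signal of Mef2b was 6.82, near the median of 6.75 over all genes, and that of Mef2d was 10.81. Mef2b differed by 0.05 in SOL (95% interval -0.041 to 0.139) and by -0.00 in TA (-0.106 to 0.106), and Mef2d by 0.05 in SOL (-0.035 to 0.136) and -0.05 in TA (-0.135 to 0.033). None of the 4 MEF2 genes had a called rhythm in any of the 4 muscle and genotype groups. Mef2c came nearest, with an amplitude of 0.10 in mKO TA (limma adjusted p = 0.0574). That rhythm was called without TA mKO ZT0 replicate C (0.11, limma adjusted p = 0.0144) or TA Ctrl ZT8 replicate C (0.10, limma adjusted p = 0.0491).

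Fast and slow muscle differed in 6 of the 8 genes in each genotype, where 42.9% of all genes were called in Ctrl and 48.2% in mKO. Myod1 was higher in TA than in SOL of the same animal in 18 of 18 Ctrl animals, by 0.45 to 1.52 with a median of 0.89, and in 18 of 18 mKO animals, by 0.05 to 1.40 with a median of 0.87. The mean was 0.92 ± 0.05 in Ctrl, or 1.89-fold (limma adjusted p = 6.47e-16), and 0.84 ± 0.05 in mKO (limma adjusted p = 5.86e-15). In order of level, Myod1 went from SOL of Ctrl (mean 8.05) to SOL of mKO (8.48), TA of Ctrl (8.97) and TA of mKO (9.32). The ranges of SOL mKO and TA Ctrl arrays overlap, and this step, across animals, was not tested. The rhythm of Myod1 in Ctrl was not called different between the muscles (limma adjusted p = 0.0658), and 0.524% of all genes were. No member was called there, and 4 had an unadjusted limma p under 0.05. It was called for Myod1 without the animals Ctrl ZT4 replicate B (limma adjusted p = 0.0443) or mKO ZT8 replicate C, a BM2* animal (limma adjusted p = 0.0345).

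Myf6 and Mef2a were higher in TA, and Myf5, Mef2c and Mef2d higher in SOL. Myf6 was higher in TA by 0.46 ± 0.05 in Ctrl (18 of 18 animals) and by 0.27 ± 0.05 in mKO (17 of 18). Mef2a was higher by 0.29 ± 0.03 and 0.16 ± 0.03, in 18 of 18 animals of each genotype. The other 3 had negative values of TA minus SOL. Myf5, measured near the dim end of the array, read -0.20 ± 0.04 in Ctrl and -0.25 ± 0.04 in mKO as TA minus SOL. Mef2c read -0.23 ± 0.03 in Ctrl and -0.19 ± 0.03 in mKO. Mef2d, a MEF2 gene made in most tissues, read -0.31 ± 0.04 and -0.41 ± 0.04. In the BM2 and BM2* animals alone the differences of Myf5 (-0.09) and Mef2d (-0.20) in Ctrl and of Myf5 (-0.10) and Mef2a (0.14) in mKO were not called. Myog and Mef2b did not differ detectably, with Ctrl intervals of -0.138 to 0.098 and -0.042 to 0.149. In the BM2 and BM2* animals alone the Ctrl difference of Mef2b was 0.26 and was called (limma adjusted p = 0.0232).

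**Figure D5:**
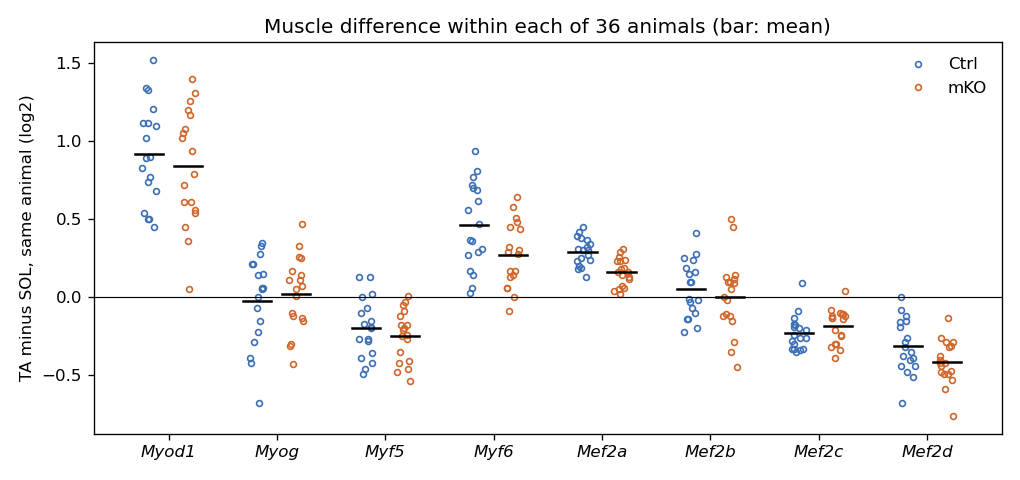
Log2 signal of TA minus that of SOL in the same animal for each of the 8 genes, with 18 Ctrl and 18 mKO animals as points and the mean as a bar. All 36 points of Myod1 lie above 0, from 0.05 to 1.52, and most points of Mef2d lie below 0.

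Genes that act on these factors were examined in lists written from general knowledge with earlier results of these data known. Of 15 inhibitors of the MyoD family 2 fell in SOL and 4 in TA, and none rose. Bhlhe40 and Bhlhe41, which are also clock-controlled repressors, read -0.38 and -0.68 in SOL and -1.11 and -0.30 in TA. Mdfic, another gene of this list, read -0.18 in TA. Of 3 E proteins, the dimer partners, none was called in SOL and 1 fell in TA. Together these 18 genes had a median difference of 0.02 in SOL and 0.00 in TA, with 11.1% and 27.8% called, beside medians of 0.00 and 0.02 and shares of 7.1% and 14.8% over all genes. The SOL share rests on 2 genes and is near that of all genes.

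Of 31 cofactor and signalling genes measured, 4 rose and 3 fell in SOL, and 3 rose and 8 fell in TA. Of all genes 3.56% rose and 3.54% fell in SOL, and 6.76% rose and 8.06% fell in TA. Of 13 coactivators 1 rose and 2 fell in SOL, and 6 fell in TA. Ep300, an acetyltransferase, read -0.19 in SOL and -0.33 in TA, and Vgll2, a muscle cofactor, read -0.68 in TA. Carm1, an arginine methyltransferase, read -0.30 in TA, and Setd7 -0.17 and Kat2b 0.20 in SOL. Of 4 class IIa deacetylases, which repress MEF2, 1 fell in SOL (Hdac4, by 0.27) and 2 fell in TA. Of 14 genes for kinases, phosphatases and their regulators or anchors, in calcium or stress signalling, 3 rose in each muscle and none fell. Camk2b rose by 0.22 and Mapk14 by 0.17 in SOL, and Camk2d rose by 0.40, Ppp3ca by 0.16 and Camk2b by 0.14 in TA. Over the 31 genes measured, 22.6% were called in SOL and 35.5% in TA, beside 7.1% and 14.8% of all genes, with medians of 0.01 and -0.03.

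Of 39 known targets of the MyoD family and MEF2, 8 rose and 7 fell in SOL, and 13 rose and 8 fell in TA. That is 38.5% and 53.8%, with medians of -0.00 and 0.02, beside 7.1% and 14.8% of all genes. Cdkn1a, a cell cycle inhibitor, rose by 2.26 in SOL and 2.85 in TA. Chrnb1, the beta subunit of the acetylcholine receptor, rose by 0.70 and 1.05, and Actc1, cardiac actin, by 0.83 and 1.5. In SOL, Chrna1 read -0.30, Myl1 -0.17 and Myom2 -0.30. In TA, Ppargc1a read -0.29, Klf6 -0.33 and Myl4 -0.28. The targets thus moved in both directions in each muscle.

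Across the 24 group means, centred within each muscle, the genes whose pattern was most like that of Myod1 were Tle1 (r = 0.85), Dot1l (0.84) and Snai2 (0.84). For Myf6 they were Daam1 (0.88), Kti12 (0.88) and Slc20a1 (0.85), and for Myf5 Rae1 (0.71), Cnr2 (0.69) and U2af1 (0.66). For Mef2a they were Psd3 (0.89), Gpbp1 (0.88) and Adi1 (0.88), for Mef2c Synm (0.92), Agtpbp1 (0.91) and Gdap1 (0.91), and for Mef2d Rela (0.79), Cic (0.78) and Arhgap39 (0.78). Centring removes the difference between muscles, the only difference called for Myf5 and Mef2d with all animals. The named genes were picked for the highest r over all genes, a choice that gives high values by itself. The group means share arrays across genes, and the values are descriptions.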

How the data were processed

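Total RNA was labelled and hybridised to whole-transcript arrays, per the labels' protocols. The deposited values are log2 signals normalised with RMA, per the submitters' processing notes (no version given). Of 21225 probe sets 20239 had 1 gene symbol and were tested, and 986 without a listed gene were left out. No value was changed. Groups, animals and times came from the labels.

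The tests used lmFit and eBayes of limma 3.58.1 under R 4.3.3. Genotype effects came from 36 arrays per muscle with a term for each genotype and time, averaged over the 6 times. Muscle differences and the interaction used TA minus SOL within animals, since the labels state the shared animal. Rhythm was a joint F test of a 24 h cosine and sine. Benjamini-Hochberg adjustment ran across the 20239 genes. The tests were checked on simulated data. Precision is limited by how many arrays there are.

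The members and lists were chosen with earlier results of these data known. Genes were named as all members, Arntl and Dbp, up to 3 per list, muscle and direction with the smallest p, and the 3 most alike per called member. Pax7 was added after its values were seen. Alternatives covered dim genes, the prior, array weights, quantile scaling, animal series, single animals and the replicate block.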

Additional observations from a re-analysis of the deposited data

Results flagged for a closer look

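The genotype effect on Mef2a differed between the muscles by -0.135 on the log2 scale (TA minus SOL, limma adjusted p = 0.0312), with -0.16 in TA and -0.03 in SOL. The call was lost in 12 of the 36 fits that left out 1 animal, with values in those fits from -0.134 to -0.125. These were Ctrl ZT0 replicate A, ZT4 A and B, ZT8 A, ZT12 B, ZT16 A and ZT20 B, and mKO ZT0 C, ZT4 C, ZT8 B, ZT16 B and ZT16 C. In the BM3 animals alone the value was -0.135 (limma adjusted p = 0.548), and in the BM2 and BM2* animals -0.094 (limma adjusted p = 1). Every fit named here kept the negative direction.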

How the results depend on the processing

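Counts of members called stayed within 1.5 times in 102 of 124 alternatives. In TA mKO, 4 rhythmic members (1 as reported) were called among genes above the median signal, 3 with a trend and robust prior, 3 with array weights, 3 with quantile normalisation and 2 with the replicate block. Of 48 single-time tests in TA, 1 was called as reported, against 6, 5, 10, 6 and 2 in the same order. Rhythm in Ctrl TA gave 2 members with array weights and 2 in the test over 6 time means, which left 0 in mKO SOL. The muscle difference in rhythm gave 1 with genes above the median, array weights or quantile normalisation. BM3 animals alone gave 0 for the interaction and 0 for rhythm in Ctrl SOL. BM2 and BM2* animals alone gave 1 for the genotype effect in SOL, 0 in TA and 0 for the interaction. Without the 2 animals with liver transcripts, a choice made after seeing the data, the interaction gave 0.

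With 1 animal or array left out, counts ran from 0 to 1 for the interaction, 1 to 2 for rhythm in Ctrl TA and in mKO TA, 0 to 1 for the rhythm difference between genotypes in TA and between muscles, and 1 to 3 for single times in SOL and in TA. The genotype difference in Myod1 amplitude in TA turned from 0.025 to -0.028 without TA mKO ZT8 replicate C, a BM2* animal (range -0.028 to 0.067).

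Over all genes, the TA genotype effect gave 5388 calls with array weights (3000 as reported), 1882 in BM3 and 377 in BM2 and BM2* animals, and SOL 579 and 167 (1436). The interaction gave 1201, 167 and 11 (549). In BM3 animals and over 6 time means, rhythm gave 394 and 713 in Ctrl SOL (1224), 273 and 565 in mKO SOL (1149), 156 and 335 in Ctrl TA (547), 160 and 214 in mKO TA (357), the last 563 with array weights. Muscle differences gave 4356 (8690) and 5251 (9755) in BM2 and BM2* animals. Rhythm differences between genotypes gave 0 to 14 in SOL (8) and 2 in BM3 animals in TA (21), and between muscles 17 to 161 (106). Replicate letters paired Ctrl and mKO by number only, with a median correlation of deviations of 0.153 (over 0.1 in 21 of 36 pairs). For SOL and TA of the same animal the median was lower, at 0.046 (over 0.1 in 11 of 36 pairs). The cause of the shifts in these counts was not tested. The fits within a series also had fewer animals and covered fewer times.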
